A study of Homo sapiens with 18 samples.

Results

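The BCR-ABL and STAT5 signalling genes were BCR, ABL1, STAT5A, STAT5B, CRKL, GAB2, PIM1, CISH, SOCS2 and BCL2L1. These 10 genes were chosen by name, out of 24407 genes in the count files, and all 10 were among the 14720 genes that passed the filter on low counts. RNA was sequenced from K562, a human erythroleukaemia cell line that carries the BCR-ABL1 fusion gene, in 6 groups of 3 libraries. The groups dCas9_KRAB_HS2_CR4 and dCas9_KRAB_HS2_CR10 stably expressed catalytically inactive Cas9 (dCas9) fused to the KRAB repressor domain, together with the gRNA CR4 or CR10, which targets HS2, a distal enhancer in the locus control region of the beta-globin genes. The groups dCas9_HS2_CR4 and dCas9_HS2_CR10 expressed dCas9 without the repressor, with the same gRNAs. The group dCas9_KRAB expressed the repressor with no gRNA. These 5 groups received lentivirus with polybrene at 4 µg/ml and puromycin at 1 µg/ml from about 96 h, and their libraries are called lentiviral below. The group No_lentivirus_control was not transduced, so lentivirus, its cargo and any selection cannot be told apart in comparisons with it. The labels do not say whether the 3 libraries of a group came from separate transductions, and p-values measure only the spread between these libraries.

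BCR-ABL is a constitutively active tyrosine kinase formed by a translocation between the BCR and ABL1 genes, and it drives chronic myeloid leukaemia, the disease from which K562 was derived. It binds adaptor proteins such as CRKL and GAB2, which couple it to the RAS and PI3K pathways, and it leads to phosphorylation of the transcription factors STAT5A and STAT5B. Phosphorylated STAT5 dimers enter the nucleus, bind palindromic sites of the form TTCNNNGAA and switch on targets. Among these are the survival genes PIM1 and BCL2L1 and the feedback inhibitors CISH and SOCS2, which dampen cytokine receptor signalling. Phosphorylation was not measured here, and a read count per gene does not separate transcripts of the fusion from those of the unrearranged BCR and ABL1 genes.

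Promoter sequences of the STAT5 targets CISH, BCL2L1 and PIM1 are given because only that of CISH carried the STAT5 palindrome. Each is the RefSeq window of 300 bases on GRCh38.p14, with 250 bases before and 50 bases after a start site, written 5′ to 3′ on the gene's strand, with the letters TTCNNNGAA in capitals where present. The motif was searched by its letters, and since it is its own reverse complement a single search covers both strands. The windows are CISH at chr3:50611725-50612024 on the minus strand, BCL2L1 at chr20:31723914-31724213 on the minus strand and PIM1 at chr6:37169902-37170201 on the plus strand.
CISH: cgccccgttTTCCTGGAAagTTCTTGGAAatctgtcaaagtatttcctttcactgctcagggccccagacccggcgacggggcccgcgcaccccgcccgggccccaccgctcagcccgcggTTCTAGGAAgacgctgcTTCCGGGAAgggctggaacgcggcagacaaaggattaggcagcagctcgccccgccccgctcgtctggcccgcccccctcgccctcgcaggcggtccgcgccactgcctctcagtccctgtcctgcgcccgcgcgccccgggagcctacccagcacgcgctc
BCL2L1: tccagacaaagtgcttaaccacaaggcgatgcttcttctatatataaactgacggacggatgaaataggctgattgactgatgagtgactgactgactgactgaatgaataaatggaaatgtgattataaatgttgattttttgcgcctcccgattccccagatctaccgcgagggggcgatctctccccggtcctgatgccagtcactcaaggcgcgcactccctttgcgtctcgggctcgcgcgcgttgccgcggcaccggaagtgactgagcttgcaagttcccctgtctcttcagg
PIM1: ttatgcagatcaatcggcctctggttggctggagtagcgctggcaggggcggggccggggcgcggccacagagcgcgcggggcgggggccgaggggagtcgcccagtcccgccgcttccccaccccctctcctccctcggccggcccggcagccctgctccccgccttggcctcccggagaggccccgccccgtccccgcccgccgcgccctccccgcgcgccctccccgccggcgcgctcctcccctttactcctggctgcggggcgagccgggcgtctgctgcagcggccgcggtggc
The CISH window held 4 matches, TTCCTGGAA at 241 bases before the start site, TTCTTGGAA at 230, TTCTAGGAA at 129 and TTCCGGGAA at 112. Of 35116 promoter windows of this length 7.66% held at least 1 match, 0.456% held 2 or more and 0.0484% held 3 or more. RefSeq windows were at hand for 9 of the 10 genes, 13 windows in all, and the CISH window alone among them held a match. The STAT5 target SOCS2 had no window and was not searched. BCL2L1 has another window, not printed. A match describes letters only, and its absence says nothing about STAT5 at the other genes. The coordinates belong to this reference and not to hg19, the build named in the submitters' processing notes.

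Per library the files held 22805964 to 34032962 counts, at 2 counts per sequenced fragment. Expression is given as CPM, read counts scaled to library size, with TMM factors. HBE1, the embryonic globin gene regulated by HS2, had 55.8 to 68.1 CPM in dCas9_KRAB_HS2_CR4, 73.3 to 95.1 CPM in dCas9_KRAB_HS2_CR10, 329 to 402 CPM in dCas9_HS2_CR4, 332 to 425 CPM in dCas9_HS2_CR10, 437 to 468 CPM in dCas9_KRAB and 546 to 670 CPM in No_lentivirus_control, so these levels go with the labels. Sums of cell type markers are in CPM of library totals without TMM factors. All 9 erythroleukaemia markers were detected, with summed levels of 2260 to 4470 CPM in lentiviral libraries and 3080 to 4580 CPM in untransduced ones. Of the other lists, 5 T cell markers summed to 3.94 to 8.86 CPM in lentiviral libraries and 6.12 to 11.5 CPM in untransduced ones, and 4 B cell markers to 0.708 to 2.32 CPM in lentiviral libraries and 1.23 to 2.6 CPM in untransduced ones, with MS4A1 at 0 throughout. The 5 granulocyte and monocyte markers summed to 10.7 to 30.3 CPM in lentiviral libraries and 26 to 38.5 CPM in untransduced ones, and the 5 fibroblast and epithelial markers to 113 to 150 CPM in lentiviral libraries and 103 to 122 CPM in untransduced ones, with KRT5 at 0 throughout. Their part in the results was not tested. In the 5 lentiviral groups the library numbered 3 stood apart from those numbered 1 and 2, and No_lentivirus_control library 2 stood apart from libraries 1 and 3, so the main results are also given without them.

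Per kilobase of transcript, the order of median levels over the 18 libraries was STAT5A at 180 CPM per kb, PIM1 at 172, CRKL at 122, ABL1 at 96.9, BCL2L1 at 88.1, STAT5B at 79.2, SOCS2 at 66.9, CISH at 48.7, BCR at 34.4 and GAB2 at 13.8 CPM per kb. Among genes further apart in the order, the kinase genes did not overlap: ABL1 ranged over 71.6 to 121 CPM per kb and BCR over 22.7 to 52.4 CPM per kb. Neither did the STAT5 genes, with STAT5A at 152 to 220 CPM per kb and STAT5B at 62.2 to 127 CPM per kb. Every pair of neighbours in the order had overlapping ranges over the libraries. Within libraries, PIM1 was above CRKL and CRKL above ABL1 in 18 of 18, and the other neighbouring pairs kept the order in 8 to 17 of 18. Of the 50-base windows of BCR transcripts 14.82% also occur in another gene, most often the pseudogene BCRP2, and STAT5A and STAT5B share 507 windows with each other. Levels of these 3 genes are uncertain to the extent that reads from shared sequence were split. BCRP2 itself had 74 to 164 counts per library, against 3534 to 9464 counts for BCR.

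**Figure D1:**
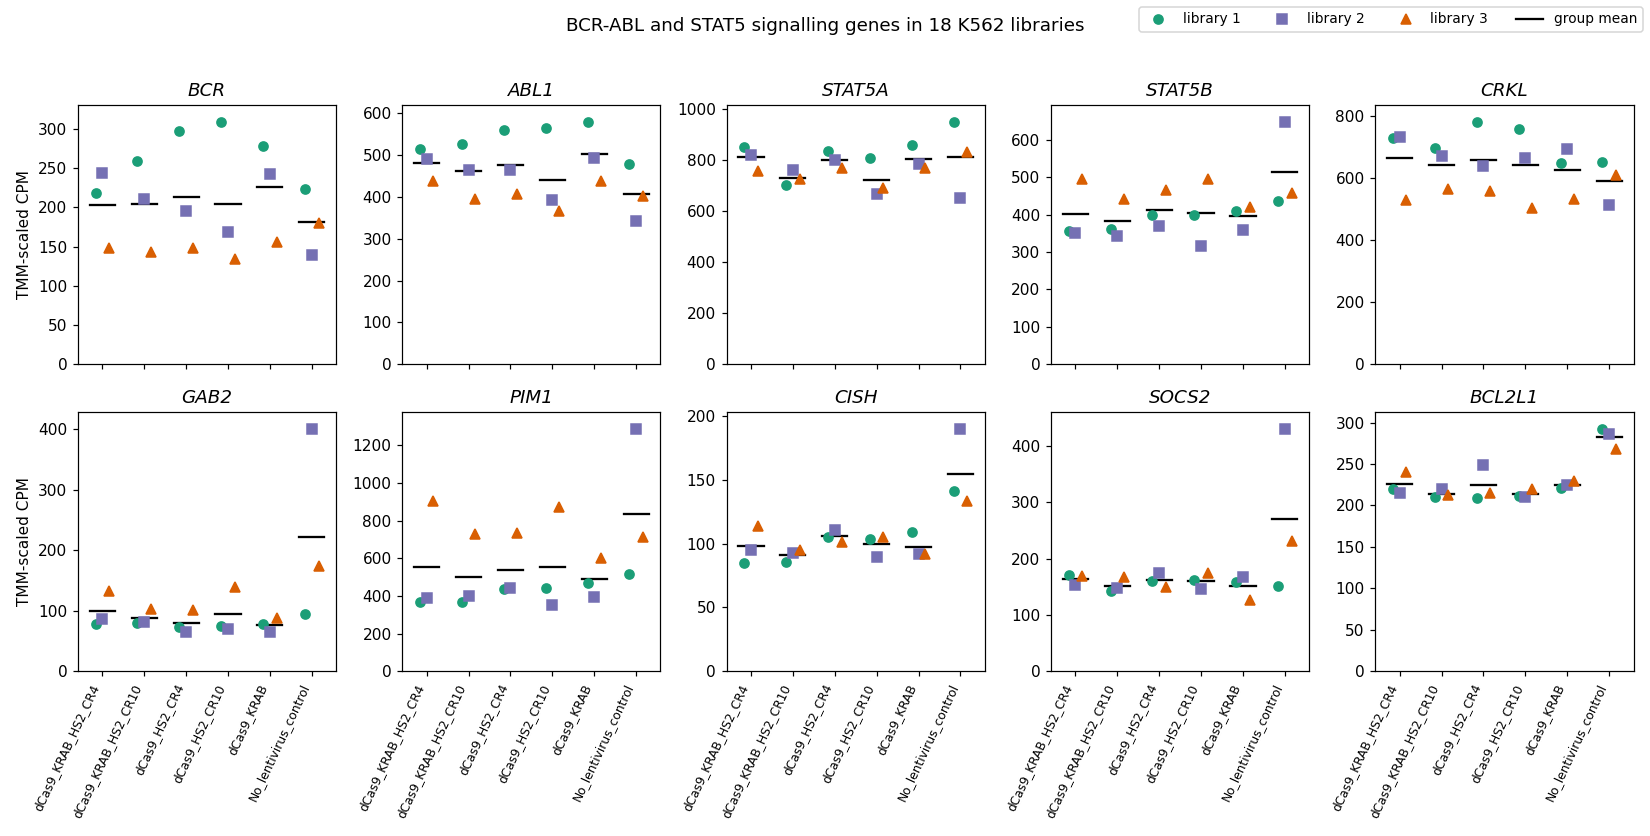
Expression of the 10 genes in every library. The vertical axes show TMM-scaled CPM from 0, each symbol is 1 library marked by its number, and the bar is the mean of 3 libraries. In the lentiviral groups library 3 is high for PIM1 and low for BCR, and No_lentivirus_control library 2 is the highest library for GAB2, PIM1, CISH and SOCS2.

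With both gRNAs, 0 of these 10 genes passed the test for a difference with the repressor at HS2. In edgeR's quasi-likelihood test, 0 of the 10 genes passed at an adjusted p of 0.05 in dCas9_KRAB_HS2_CR4 against dCas9_KRAB, where 3 of 14720 genes (0.0204%) passed, and 0 had an unadjusted p under 0.05. Likewise 0 passed in dCas9_KRAB_HS2_CR10 against dCas9_KRAB, with 3 of all genes (0.0204%) passing. Comparison of the repressor with dCas9 alone at the same gRNA also gave 0 of 10, with 3 genes (0.0204%) passing for CR4 and 3 genes (0.0204%) for CR10. In all 4 comparisons the genes that passed were HBE1, HBG1 and HBG2. The dCas9_HS2_CR4 and dCas9_HS2_CR10 groups gave 0 of 10 against dCas9_KRAB, and 0 of all genes (0%) passed in both, with 66 and 175 genes at an unadjusted p under 0.05. The difference between the KRAB effects at CR4 and CR10 passed for 0 of 10 and for 0 of all genes (0%), with 51 genes at an unadjusted p under 0.05. DESeq2 likewise called 0 genes in all in these last 3 comparisons. Over all 7 comparisons this fit, which has no block for library number, gave 0 of the 10 genes an unadjusted p under 0.05, and none of the 10 passed with DESeq2.

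BCL2L1, which encodes the anti-apoptotic protein BCL-XL, averaged 225.4 ± 13.6 CPM in dCas9_KRAB_HS2_CR4 and 224.9 ± 4.62 CPM in dCas9_KRAB (SD, n = 3 each), with a log2 difference of 0.00 and a 95% interval of -0.21 to 0.21. STAT5A averaged 810.2 ± 47.5 CPM in dCas9_KRAB_HS2_CR4 and 802.5 ± 48 CPM in dCas9_KRAB (SD, n = 3 each), with an interval of -0.25 to 0.28. For PIM1, a serine/threonine kinase that promotes survival, the interval of -0.72 to 1.08 was wide. In that comparison PIM1 had 369.3, 387.2 and 902.4 CPM in dCas9_KRAB_HS2_CR4, against 468.4, 394.1 and 601.7 CPM in dCas9_KRAB. In both groups library 3 was above libraries 1 and 2. With library number as a block among the lentiviral libraries, the same PIM1 difference was 0.08 with an interval of -0.21 to 0.36. GAB2 had the highest log2 difference of the 10, 0.36, with an interval of -0.47 to 1.20.

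In dCas9_KRAB_HS2_CR10 the 3 libraries of STAT5A, at 703.3, 760.6 and 723.4 CPM, lay below the 3 of dCas9_KRAB, at 857, 784 and 766.6 CPM. BCL2L1 did likewise, at 210.2, 220.1 and 212.1 CPM in dCas9_KRAB_HS2_CR10, against 220.5, 224.3 and 229.7 CPM in dCas9_KRAB. Neither passed the test (log2 differences -0.14 and -0.07), and 4.74% of all genes were below in this way, against 2 of these 10. BCL2L1 was likewise below dCas9_KRAB in all 3 libraries of dCas9_HS2_CR10, which lacks the repressor, at 211.7, 209.9 and 219.8 CPM (log2 difference -0.07), and STAT5A had a log2 difference of -0.15 there. In that comparison 401 of 14720 genes were below in this way, against 1 of these 10. Both comparisons use the same dCas9_KRAB libraries and are not independent. With library number as a block among the lentiviral libraries, 6 of 14605 genes passed for CR4 against dCas9_KRAB and 7 for CR10, 8 for the KRAB domain at CR4 and 7 at CR10, and 0 of these were among the 10. GAB2 then had a log2 difference of 0.34 (95% interval 0.07 to 0.61) for CR4 against dCas9_KRAB, which failed the adjustment (edgeR, Benjamini-Hochberg adjusted p = 0.42). In the blocked edgeR fits GAB2 had an unadjusted p under 0.05 there and also for the KRAB domain at CR4 (log2 difference 0.31, adjusted p = 0.94), for dCas9_HS2_CR10 against dCas9_KRAB (0.25, adjusted p = 0.474) and for the difference between the KRAB effects (0.35, adjusted p = 1). ABL1 had one for dCas9_HS2_CR10 against dCas9_KRAB (-0.19, adjusted p = 0.461). Of all 14605 genes, 1264 had an unadjusted p under 0.05 for CR4 against dCas9_KRAB and 730 for the KRAB domain at CR4. The counts were 1511 for dCas9_HS2_CR10 against dCas9_KRAB and 240 for the difference between the KRAB effects. These comparisons share libraries and are not independent.

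**Figure D2:**
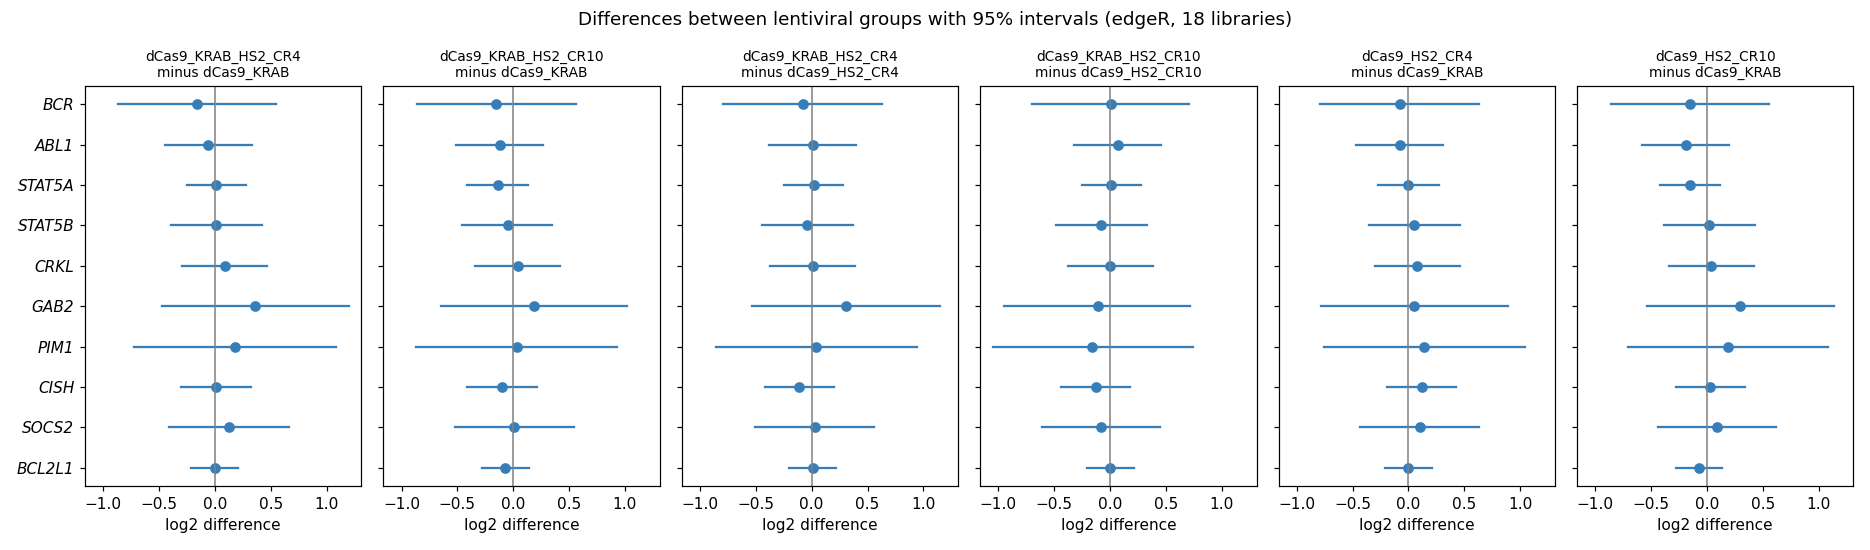
Log2 differences between lentiviral groups for the 10 genes. Each panel is 1 comparison, points are edgeR estimates from the fit of 18 libraries and lines are 95% intervals; every interval spans 0, and GAB2, PIM1 and BCR have the widest.

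Against untransduced cells, 4 of the 10 genes were lower when the 5 lentiviral groups were averaged: the adaptor gene GAB2 and the STAT5 targets CISH, SOCS2 and BCL2L1. In the same comparison 2757 of 14720 genes (18.7%) passed, 1112 higher and 1645 lower (11.2%). Without No_lentivirus_control library 2, 346 of all genes and 2 of the 10, CISH and BCL2L1, passed. With all libraries the median log2 difference was -0.36 over the 10 genes, which were chosen with earlier results of these data known, and 0.01 over all genes tested. This median was not taken without library 2, where several of the differences were smaller, as given below. BCR, ABL1, STAT5A, CRKL, STAT5B and PIM1 did not pass. The test takes a single estimate of the spread per gene for all groups, to which the lentiviral libraries contribute most. Where the untransduced libraries spread more widely, the SE and p-values understate the uncertainty. The fit also treats the 15 lentiviral libraries as independent, although those of the same number deviated from their group means together. In RNA of whole cultures, less RNA per cell and fewer cells with a high level cannot be told apart.

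CISH, the first-described member of the SOCS family of feedback inhibitors, was the clearest. It had 84.9 to 114.3 CPM in the 15 lentiviral libraries (group means of 91.1 to 105.9 CPM), against 141.7, 189.9 and 133.3 CPM in the untransduced libraries. All lentiviral libraries were below all untransduced ones. The log2 difference was -0.66 ± 0.11 (SE), 1.58-fold lower, with an adjusted p of 0.00128 (edgeR quasi-likelihood, Benjamini-Hochberg). CISH stayed past the threshold in every alternative run, the weakest being without No_lentivirus_control library 2, where the log2 difference was -0.49 and the adjusted p was 0.0281. CISH exons overlap those of MAPKAPK3 on the opposite strand, and the library kit did not mark strand. MAPKAPK3 had a log2 difference of 0.12 in the same test (adjusted p = 0.617). BCL2L1 overlaps ABALON in the same way, which was not analysed here.

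BCL2L1 had 209.5 to 248.9 CPM in the lentiviral libraries, against 292, 286.1 and 268.7 CPM in the untransduced ones. Its groups did not overlap either, and the untransduced libraries lay close together, library 2 included. The log2 difference was -0.36 ± 0.07 (SE), 1.28-fold lower, with an adjusted p of 0.00424 in edgeR's test, and -0.34 to -0.39 when single libraries were left out. Genes with every lentiviral library below every untransduced one made up 4.24% of all genes tested, and 2 of the 10, CISH and BCL2L1, were among them. BCL2L1 was also steady among the lentiviral libraries, with an SD of log2 CPM of 0.07, and 0.655% of 9307 genes with a mean of at least 10 CPM had a lower one, against a median over those genes of 0.19.

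SOCS2, another SOCS-family inhibitor, had 126.5 to 174 CPM in the lentiviral libraries, against 151.2, 429.8 and 231.4 CPM in untransduced libraries 1, 2 and 3. Library 1 lay inside the lentiviral range and library 2 far above it. The log2 difference was -0.78 ± 0.18 (SE), 1.72-fold lower, with an adjusted p of 0.00758 in edgeR's test. The SD was 13.6 CPM in the lentiviral libraries (n = 15) and 143 CPM in the untransduced ones (n = 3). This SE and p, from a shared spread, therefore understate the uncertainty. Without untransduced library 2 the log2 difference was -0.28 and the adjusted p was 0.269. SOCS2-AS1, which overlaps SOCS2 on the opposite strand, had 18 to 116 counts per library, against 3294 to 13864 counts for SOCS2.

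GAB2, the scaffold adaptor that links BCR-ABL to PI3K and SHP2, had 64.5 to 139.1 CPM in the lentiviral libraries, against 94.2, 399.6 and 173.2 CPM in the untransduced ones. Again library 1 lay inside the lentiviral range. The log2 difference was -1.35 ± 0.27 (SE), 2.55-fold lower, with an adjusted p of 0.0038 in edgeR's test. The SD was 22.6 CPM in the lentiviral libraries (n = 15) and 159 CPM in the untransduced ones (n = 3), so the same limit holds. Without untransduced library 2 the log2 difference was -0.62 and the adjusted p was 0.189, so the calls of GAB2 and SOCS2 rest on that library.

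PIM1 and STAT5B had the same untransduced library on top. PIM1 had 349.6 to 902.4 CPM in the lentiviral libraries, against 516, 1285 and 710.6 CPM in the untransduced ones, with a log2 difference of -0.67 (edgeR adjusted p = 0.13). STAT5B had 317.2 to 494.5 CPM in the lentiviral libraries, against 437, 647.2 and 457.1 CPM in the untransduced ones, with a log2 difference of -0.37 (edgeR adjusted p = 0.0772). Both passed with library number as a block across all 18 libraries, although the numbers do not pair untransduced with lentiviral libraries, PIM1 at -0.78 (adjusted p = 0.0136) and STAT5B at -0.39 (adjusted p = 0.0239), where 4195 genes in all passed. Both also passed without the libraries numbered 3, at -1.18 for PIM1 (adjusted p = 0.00314) and -0.59 for STAT5B (adjusted p = 0.013). STAT5B passed in addition without dCas9_KRAB_HS2_CR4 library 3 (adjusted p = 0.0427), dCas9_HS2_CR10 library 3 (0.042) or No_lentivirus_control library 1 (0.0423). Without No_lentivirus_control library 2 the log2 differences were -0.23 for PIM1 and -0.17 for STAT5B.

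The upstream genes were not called. ABL1 had 367 to 578.7 CPM in lentiviral libraries, against 479.9, 343.3 and 401.5 CPM in untransduced ones, with a log2 difference of 0.21 (edgeR adjusted p = 0.307). BCR had 133.6 to 308.8 CPM in lentiviral libraries, against 223.4, 139.9 and 180.1 CPM in untransduced ones, also with 0.21 (adjusted p = 0.595). STAT5A, at -0.07 (adjusted p = 0.646), and CRKL, the SH2 and SH3 adaptor and a direct BCR-ABL substrate, at 0.13 (adjusted p = 0.539), were nearest to 0. In untransduced library 2 these 4 genes were at their lowest of the 3 untransduced libraries, while GAB2, STAT5B, PIM1, CISH and SOCS2 were at their highest.

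**Figure D3:**
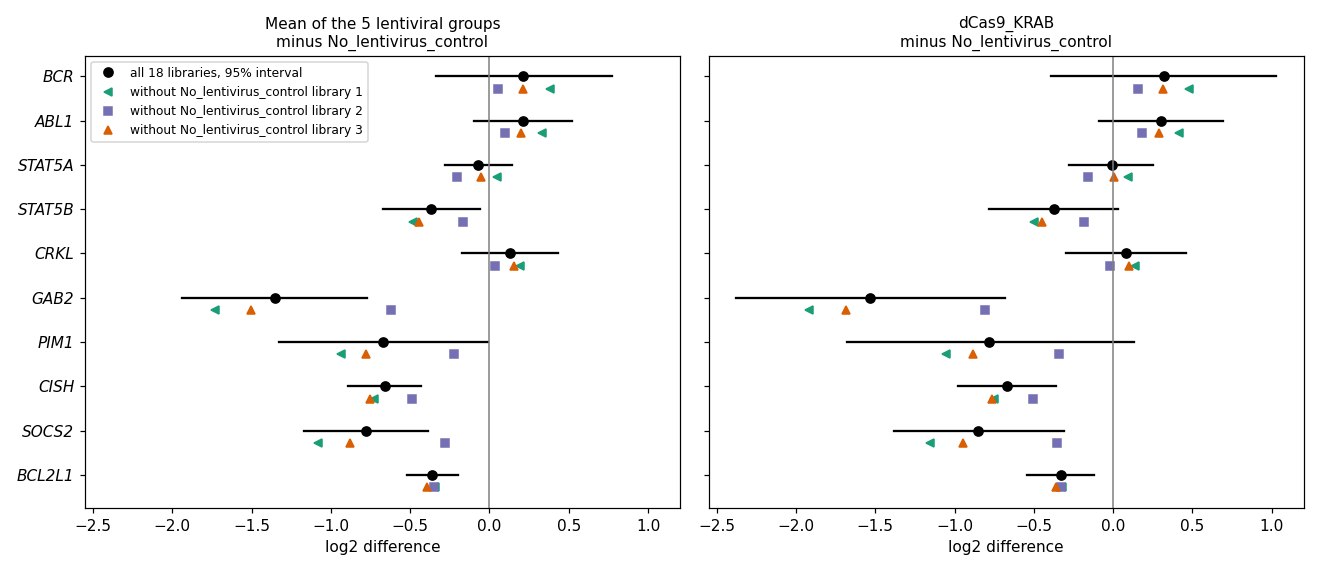
Log2 differences from No_lentivirus_control for the 10 genes. Black points are estimates from 18 libraries with 95% intervals, for the mean of the 5 lentiviral groups on the left and dCas9_KRAB on the right, and coloured symbols leave out 1 untransduced library. Leaving out library 2 moves GAB2 to -0.62 and SOCS2 to -0.28 on the left, and GAB2, CISH, SOCS2 and BCL2L1 stay below 0 in every version.

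The guideless repressor group compared alone with untransduced cells had GAB2, CISH and SOCS2 lower, with larger standard errors. In that comparison 976 of 14720 genes (6.63%) passed, 423 higher and 553 lower (3.76%). GAB2 had 77.9, 65.4 and 87.2 CPM in dCas9_KRAB, against 94.2, 399.6 and 173.2 CPM untransduced, a log2 difference of -1.53 ± 0.39 (SE; edgeR adjusted p = 0.0318). CISH had 109, 91.6 and 91.9 CPM in dCas9_KRAB, with a difference of -0.67 ± 0.14 (SE; adjusted p = 0.0194). SOCS2 had 157.7, 167.9 and 126.5 CPM in dCas9_KRAB, with -0.85 ± 0.25 (SE; adjusted p = 0.0487). BCL2L1 was just outside the threshold at -0.33 ± 0.10 (SE; adjusted p = 0.0505), with 220.5, 224.3 and 229.7 CPM in dCas9_KRAB; it passed with RLE size factors, halved counts or DESeq2 (adjusted p 0.0408, 0.0373 and 0.00222). STAT5B, GAB2, CISH and BCL2L1 were lower in every dCas9_KRAB library than in every untransduced one, as were 13.4% of all genes. This comparison and the one above share the untransduced libraries and the estimate of spread, and are not independent.

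Calls in this smaller comparison depended on single libraries. Without dCas9_KRAB library 1, 2 or 3, 0 of the 10 genes passed, and 27, 202 and 238 of all genes did. The log2 differences were then -1.65 to -1.43 for GAB2, -0.76 to -0.62 for CISH and -0.93 to -0.75 for SOCS2, close to those with all libraries. Without No_lentivirus_control library 2, 0 of the 10 and 41 of all genes passed. Without No_lentivirus_control library 3, CISH and 214 of all genes passed. Without No_lentivirus_control library 1, GAB2, CISH, SOCS2 and BCL2L1 and 2444 of all genes passed. With only the 6 libraries of the comparison in the fit, 0 of the 10 genes and 0 of all genes passed, with 3056 genes at an unadjusted p under 0.05. With library number as a block, 2619 genes passed, among them GAB2, CISH, SOCS2 and BCL2L1. Without the libraries numbered 3, GAB2 and CISH and 782 of all genes passed.

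Within the lentiviral groups, the library number went with the level of 6 of the 10 genes. PIM1, GAB2 and STAT5B were highest in library 3 of all 5 groups, and BCR, ABL1 and CRKL were lowest in it. In the test of library number 7937 of 14605 genes (54.3%) passed, so 6 of 10 is near the share of all genes. Of all genes, 15.6% were highest in library 3 of every group and 18.3% were lowest, against 3 and 3 of the 10.

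PIM1 had 601.7 to 902.4 CPM in the 5 libraries numbered 3, against 367.5 to 468.4 CPM in those numbered 1 and 349.6 to 442.7 CPM in those numbered 2. The ranges did not overlap. Number 3 exceeded the mean of numbers 1 and 2 by 0.94 on the log2 scale, 1.92-fold (adjusted p of the library number = 7.84e-08, edgeR). GAB2 had 87.2 to 139.1 CPM in libraries numbered 3, against 73.2 to 79.6 CPM in number 1 and 64.5 to 86.6 CPM in number 2, a difference of 0.60 (adjusted p = 9.2e-06). STAT5B had 420.9 to 494.5 CPM in libraries numbered 3, against 357 to 410 CPM in number 1 and 317.2 to 369.6 CPM in number 2, a difference of 0.36 (adjusted p = 6.11e-05). By group, the difference for PIM1 was 1.25 in dCas9_KRAB_HS2_CR4, 0.93 in dCas9_KRAB_HS2_CR10, 0.74 in dCas9_HS2_CR4, 1.16 in dCas9_HS2_CR10 and 0.49 in dCas9_KRAB. The guideless group had the lowest difference for PIM1, GAB2 and STAT5B; whether it differed from the other groups was not tested.

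BCR went the other way, with 133.6 to 156.5 CPM in libraries numbered 3, against 218.1 to 308.8 CPM in number 1 and 169 to 243.5 CPM in number 2. Its difference of -0.70 (1.63-fold lower, edgeR adjusted p = 1.26e-06) was joined by a step between the other numbers, number 2 being 0.35 below number 1 on the log2 scale. CRKL had 503.6 to 563 CPM in libraries numbered 3, against 646.5 to 779.4 CPM in number 1 and 638.8 to 732.9 CPM in number 2, a difference of -0.36 (adjusted p = 0.000105). ABL1 had 367 to 438.3 CPM in libraries numbered 3, against 514 to 578.7 CPM in number 1 and 392.7 to 492.7 CPM in number 2, a difference of -0.28 (adjusted p = 0.00011). For ABL1 number 3 overlapped number 2. STAT5A, CISH, SOCS2 and BCL2L1 did not pass, at -0.07, 0.09, 0.01 and 0.05 (adjusted p 0.346, 0.495, 0.979 and 0.383).

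**Figure D4:**
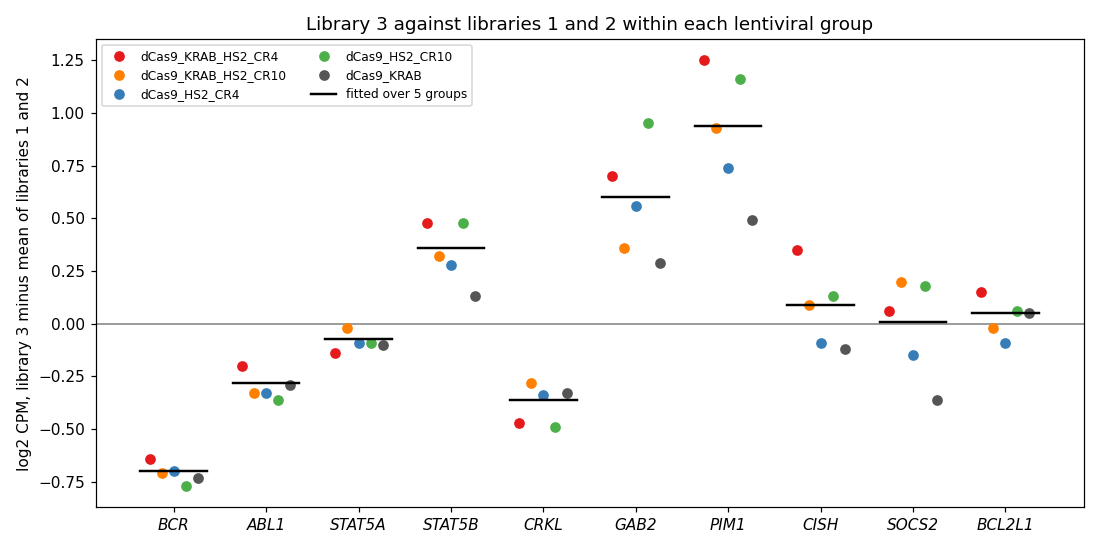
Difference of library 3 from the mean of libraries 1 and 2 in each lentiviral group. The vertical axis is in log2 CPM, points are groups of 3 libraries and bars are fitted over the 5 groups. PIM1, GAB2 and STAT5B are above 0 in all 5 groups, BCR, ABL1 and CRKL are below 0 in all 5, and CISH and SOCS2 fall on both sides.

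STAT5B was past the threshold for library number and STAT5A was not; the difference between them was not tested. The ratio of STAT5B to STAT5A counts per kilobase was 0.463 to 0.603 (median 0.514) in the 5 lentiviral libraries numbered 3, against 0.353 to 0.433 (median 0.396) in the 10 numbered 1 and 2. In the untransduced libraries it was 0.389, 0.836 and 0.464 for libraries 1, 2 and 3. The summed level of STAT5A and STAT5B was 1164 to 1253 CPM in lentiviral libraries numbered 3, against 983 to 1267 CPM in numbers 1 and 2, so these sums overlapped. In the untransduced libraries it was 1287 to 1385 CPM, above all lentiviral ones. The sums were not tested. The ratio was chosen after the values of both genes were seen and is given without a test.

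Profiles over the 18 libraries were also compared between genes. Likeness was measured as the root mean square distance between profiles of log2 CPM scaled to a mean of 0 and an SD of 1, among 9307 genes, as a description across libraries that share group and number. Nearest to PIM1 were ATF3, a stress-induced transcription factor, at 0.15, ZNF697 at 0.18 and the MYC-family gene MYCL at 0.18. Nearest to SOCS2 were the endoplasmic reticulum co-chaperone DNAJB9 at 0.22, the transcription factor ATF5 at 0.23 and TCEA1, a transcription elongation factor, at 0.25. SOCS2 had 429.8 CPM in No_lentivirus_control library 2 and at most 231.4 CPM in any other library. Its distances therefore weigh that library heavily, in which PIM1 and CISH were also highest. Nearest to CISH were EDEM2 at 0.27, the transglutaminase TGM2 at 0.28 and COG4 at 0.33, and nearest to BCL2L1 were KIAA1191 at 0.31, KLHDC8B at 0.33 and the sialidase NEU1 at 0.35. Among the 10 genes themselves the nearest pair was STAT5B and PIM1 at 0.28, followed by BCR and ABL1 at 0.37 and BCR and CRKL at 0.44. CISH and BCL2L1 were 0.54 apart, and STAT5A and STAT5B 1.57 apart.

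Of 28 other adaptor and signalling genes of the pathway 27 were tested, and 6 passed between the lentiviral groups and untransduced cells, near the 18.7% of all genes that did. Without No_lentivirus_control library 2, an alternative chosen after seeing the data, 0 genes of this list passed in edgeR's test, nor did any of the other lists below. PIK3R2, a regulatory subunit of PI3K, was higher, at 132.3 ± 19.3 CPM in lentiviral libraries (SD, n = 15) and 92.55 ± 21.1 CPM in untransduced ones (SD, n = 3), a log2 difference of 0.51 (edgeR adjusted p = 0.0299). The 5 lower genes included INPP5D, the lipid phosphatase SHIP1, at -1.51 (adjusted p = 0.0162), the inhibitory adaptor DOK2 at -0.78 (adjusted p = 0.0223) and MAPK3, which encodes ERK1, at -0.42 (adjusted p = 0.0237). INPP5D had 0.414 to 2.07 CPM in lentiviral libraries, against 1.52, 5.83 and 2.91 CPM in untransduced libraries 1, 2 and 3, so library 1 lay inside the lentiviral range. Without library 2 its log2 difference was -0.89 (adjusted p = 0.319). DOK2 had 1.69 to 3.61 CPM in lentiviral libraries, against 6.43, 3.85 and 4.56 CPM in untransduced ones, without overlap, and -0.94 without library 2 (adjusted p = 0.0556). Library number was past the threshold for 16 genes of this list, 59.3% of those tested against 54.3% of all genes. Number 3 was fitted above both other numbers in 2 of them, between them in 1 and below both in 13, which included HRAS at -0.66, PIK3R1 at -0.51 and CRK at -0.43.

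Of 14 other STAT5 targets 12 were tested, and 0 passed against untransduced cells, with a median log2 difference of 0.10. MYC had 0.29 (edgeR adjusted p = 0.0997) and PIM2, the paralog of PIM1, had -0.19 (adjusted p = 0.104). For library number 3 were higher and 4 lower in number 3, with BCL6 at 1.54, SH2B3 at 0.64 and SOCS3 at 0.35 higher and ID1 at -0.35 lower. These 7 were 58.3% of the targets tested, near the 54.3% of all genes that passed for library number. Of 10 feedback genes of the ERK pathway 9 were tested, and DUSP4, an ERK phosphatase, was lower in lentiviral libraries at -1.40 (adjusted p = 0.0271), from low levels of 0.246 CPM in lentiviral libraries and 0.625 CPM in untransduced ones. For library number 8 of these were tested, and 1 was higher (ETV4 at 0.30) and 3 lower (DUSP5 at -0.51, SPRED2 at -0.40 and SPRY2 at -0.36) in number 3. These 4 were 50% of those tested, also near the share of all genes. In the 7 comparisons among lentiviral groups, and in dCas9_KRAB against untransduced cells, 0 genes of these 3 lists passed the edgeR test.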

How the data were processed

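For the 18 libraries, poly(A) RNA of K562 cells was made into cDNA and tagmented with Nextera, per the labels' protocols, a kit that does not mark strand. The authors deposited raw counts per RefSeq transcript. Bowtie2, SAMtools, Picard, R 3.1.2, DESeq and hg19 are named in the submitters' processing notes, and their settings are not given in the sources used here. Deposited counts were all even (0 odd values). Of 40709 transcript accessions 97.89%, with 99.03% of counts, were matched to genes and summed, giving 24407 genes. Library totals were 22805964 to 34032962, and 0 library pairs were identical.

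Genes passing filterByExpr (14720) were tested with edgeR 4.0.16 (R 4.3.3), TMM scaling, glmQLFit and glmQLFTest on 6 group means over all 18 libraries (12 residual degrees of freedom, on which the 95% intervals rest), with Benjamini-Hochberg adjustment over all tested genes at 0.05. The biological coefficient of variation was 21.6%. Library number was tested as 2 coefficients together over the 15 lentiviral libraries. The code was tested on simulated counts. Members and gene lists were chosen with earlier results of these data known. All members were named in every comparison, with up to 4 called genes of smallest p per list and the 3 genes most alike for each target; 1 gene so named is not reported here. Whether library numbers pair libraries across groups was checked: deviations from group means over 12611 genes correlated above 0.1 in all 30 same-numbered lentiviral pairs (0.15 to 0.84), in 18 of 60 different-numbered ones, and in 5 of 15 same-numbered pairs with an untransduced library. Numbers were therefore read as pairing the lentiviral libraries. Alternatives were RLE size factors, no filter, halved counts, DESeq2 1.42.0, fewer groups in the fit, the replicate block and libraries left out. Promoter windows came from RefSeq (GRCh38.p14).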

Additional observations from a re-analysis of the deposited data

How the results depend on the processing

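Among 1590 values of single members under alternatives, 1558 kept their side of the threshold, 20 lost the call and 12 gained it. The sign changed in 195, with 0 of these called either with all libraries or under the alternative, and the main log2 values among them were at most 0.30 in size. Calls for all genes were few between lentiviral groups and moved as follows. For dCas9_KRAB_HS2_CR4 against dCas9_KRAB, 5 passed by DESeq2 and 6 with the replicate block, against 3. For dCas9_KRAB_HS2_CR10 against dCas9_KRAB, 7 passed with the replicate block and 1 without libraries numbered 3. For the KRAB domain at CR4, 5 passed by DESeq2 and 8 with the block. For the KRAB domain at CR10, 1 passed with only the compared groups fitted, 5 with lentiviral libraries alone, 7 with the block, 1 without libraries numbered 3 and 1 to 3 with single libraries left out. For dCas9_KRAB against No_lentivirus_control, 1958 passed by DESeq2, 2619 with the block, 0 with only the compared groups and 27 to 2444 with single libraries left out, against 976; members called were 0 with only the compared groups and 0 to 4 with single libraries left out, against 3. For the lentiviral mean against No_lentivirus_control, 4195 passed with the block and 346 to 3629 with single libraries left out, against 2757. Members called were 6 with the block, 6 without the libraries numbered 3 and 2 to 5 with single libraries left out, against 4. The count of 346, and that of 2 members, came without No_lentivirus_control library 2, and 1346 genes passed without No_lentivirus_control library 3. The cause was not tested. The replicate block changed no other member's call beyond PIM1, STAT5B and BCL2L1, given above. The 6 members called for library number passed in every alternative run. With 3 libraries a group, the members' 95% intervals reached -0.87 and 1.20 on the log2 scale in dCas9_KRAB_HS2_CR4 against dCas9_KRAB.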
